A study of Macaca mulatta with 4 samples.

Results

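The genes described here are a module of cell cycle genes that act from the decision to divide, through DNA replication, to the separation of the daughter cells. The module listed 48 symbols, and 44 of them were rows of the gene table, which holds 30807 genes. CCND2, MYCN, BUB1B and KIF23 had no row under their symbols and are not among the 44, although rows for BUB1B and KIF23 were found by gene ID. Their values were read in single nuclei of the fetal rhesus macaque cerebellum (Macaca mulatta), 1 library per fetus. The Control fetuses, 1 female and 1 male, received no intervention and were both delivered at 130 days of gestation. The LPS fetuses received 1 mg of E. coli lipopolysaccharide into the amniotic fluid as a model of chorioamnionitis, 5 days before delivery, and were delivered at 131 days (female) and 133 days (male). Control dams received no saline injection, so injection, age and LPS cannot be told apart.

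A dividing cell passes through G1, when D-type cyclins and their kinase CDK6 release the E2F factors, and S phase, when the MCM helicase opens the DNA for replication. It then passes through G2 and mitosis, when cyclin B and CDK1 condense the chromosomes and kinesins and kinetochore proteins pull them apart. In the late fetal cerebellum the main dividing cells are granule cell precursors of the external granule layer, which multiply under Sonic hedgehog before they leave the cycle and migrate inward. Astroglial and oligodendrocyte precursors also divide at this age.

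The libraries held 9250 (Control female), 8621 (Control male), 6890 (LPS female) and 7804 (LPS male) nuclei with 500 or more genes, and 4 values in a row are given in that order throughout. Both female libraries were deeper, with medians of 4508 and 4063 UMIs per nucleus against 1882 and 2308.5 in the male libraries, so fetal sex and depth cannot be told apart. Only 38.7% of the UMIs of the LPS male library lay in nuclei, against 58.7 to 73.9% elsewhere, and that library held 1939 of the 2537 nuclei of a shallow cluster left unnamed. Pairs of libraries shared 16 to 21 barcodes, or 0.231 to 0.276% of those of the smaller one. By the size of the barcode list, 7.91 to 11.7 would be shared, fewer than seen in each pair, and the cause was not tested. Nuclei were clustered with the members taken out, and a cluster was called cycling from other cell cycle genes. The level of a member by class is therefore a description, with no test. Levels are UMIs of a gene per 1000000 UMIs of the class and library (CPM). They are not compared between genes, since introns were counted and no gene lengths of this build were used.

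The module was highest in 3 clusters. The members summed to 11088, 11719.8, 10972 and 9459.6 CPM in cycling granule precursors (1519 nuclei), to 11319, 11722, 11579 and 11864 CPM in cycling astroglia (189 nuclei), and to 10847, 15783, 7819 and 7040.0 CPM in cycling oligodendrocyte precursors (34 nuclei). Committing granule cells held 1817, 1905, 1735 and 1536 CPM, and mature granule cells 568, 532, 518 and 527 CPM. The paper ties DCC and HES6, among the markers that named the committing class, to exit from the cycle. In that class 5 of 14 cycling markers outside the module were raised, and exit was not tested. Mature oligodendrocytes (13, 5, 9 and 58 nuclei) held 520.5, 3883, 1976 and 944 CPM, from 121 member UMIs in the 5 nuclei of Control male. That class stood above committing granule cells in Control male and LPS female and below them in Control female and LPS male. RNA free in the droplets, read from barcodes with 100 or fewer UMIs, carried 1577, 1422, 1573 and 1104 CPM of the members. The mature granule cells thus lay below the free RNA of their own library. By mean level, 21 of the 44 members were highest in cycling astroglia, 12 in cycling granule precursors and 9 in cycling oligodendrocyte precursors. For ATAD2 and GAS2L3 alone did the lowest library of the leading class exceed the highest library of the next class. Of the nuclei, 5.92% of cycling granule precursors, 20.1% of cycling astroglia and 17.6% of cycling oligodendrocyte precursors were marked as doublets. The exceptions to a cycling cluster were CCND1, led by oligodendrocyte precursors, and CDK6, led by committing granule cells.

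**Figure D1:**
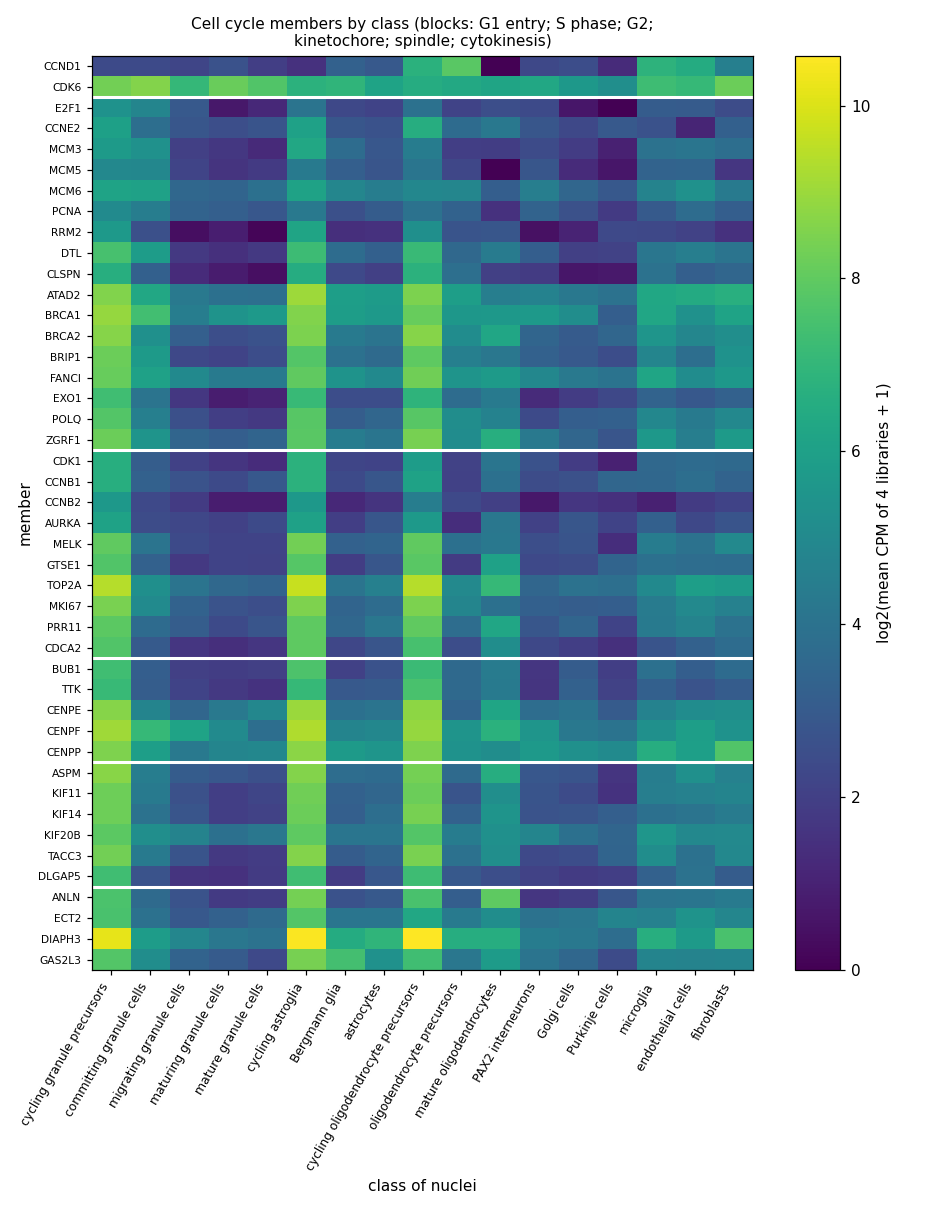
Mean level of each of the 44 members (rows, in blocks by role) in 17 classes of nuclei (columns). Values are log2 of the mean CPM of the 4 libraries plus 1. Among the classes not drawn are the granule classes led by TRPC7 and KIAA1217. The 3 cycling clusters stand out as bright columns for nearly all members, while CDK6 is bright in several classes and CCND1 is brightest in oligodendrocyte precursors.

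The G1 entry genes departed from the rest of the module. CCND1, cyclin D1, measured 3.85, 4.54, 5.41 and 3.11 CPM in cycling granule precursors and 7.40, 0, 0 and 0 CPM in cycling astroglia, but 113, 37.7, 142 and 129.8 CPM in cycling oligodendrocyte precursors. In oligodendrocyte precursors outside the cycling cluster CCND1 measured 137, 354, 206 and 227 CPM, and in endothelial cells 96.6, 41.98, 174 and 42.9 CPM. In a microglia-like class, in which macrophages were not separated, it measured 144, 103, 113 and 92.2 CPM. Free RNA carried 15.7, 15.6, 34.5 and 2.97 CPM of CCND1, so both cycling granule precursors and cycling astroglia lay at or below free RNA in every library but LPS male, where the granule precursors stood at 3.11 CPM against 2.97. The 4 libraries of oligodendrocyte precursors were all above the free RNA of their library. CCND1 UMIs in cycling granule precursors numbered 10, 5, 12 and 3, so its level there was set by few molecules. CCND2, the D cyclin best known in granule precursors, had no row to read.

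CDK6, the kinase partner of D cyclins, differed between the named stages of the granule lineage. It measured 395, 183, 484 and 230.0 CPM in cycling granule precursors, 487, 281, 529 and 255 CPM in committing granule cells and 154, 107, 186 and 80.03 CPM in migrating granule cells. In maturing granule cells it measured 372, 187, 336 and 229.9 CPM and in mature granule cells 277, 161, 244 and 145 CPM. Free RNA held 197, 139, 135 and 156 CPM of CDK6. The cycling, committing and maturing classes were above the free RNA of each library, the mature class in all but LPS male, and the migrating class in LPS female alone. Both female libraries were higher than both male libraries in each of these classes. Granule classes led by TRPC7 (5502 nuclei) and KIAA1217 (3343 nuclei) had no stage name, and their values are not given here. In cycling astroglia CDK6 measured 116, 50.6, 148 and 127 CPM, below free RNA except in LPS female. In mature granule cells the level was 63.97% of that in cycling granule precursors, whereas for MKI67, a marker of all cycling phases, it was 1.37%.

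**Figure D2:**
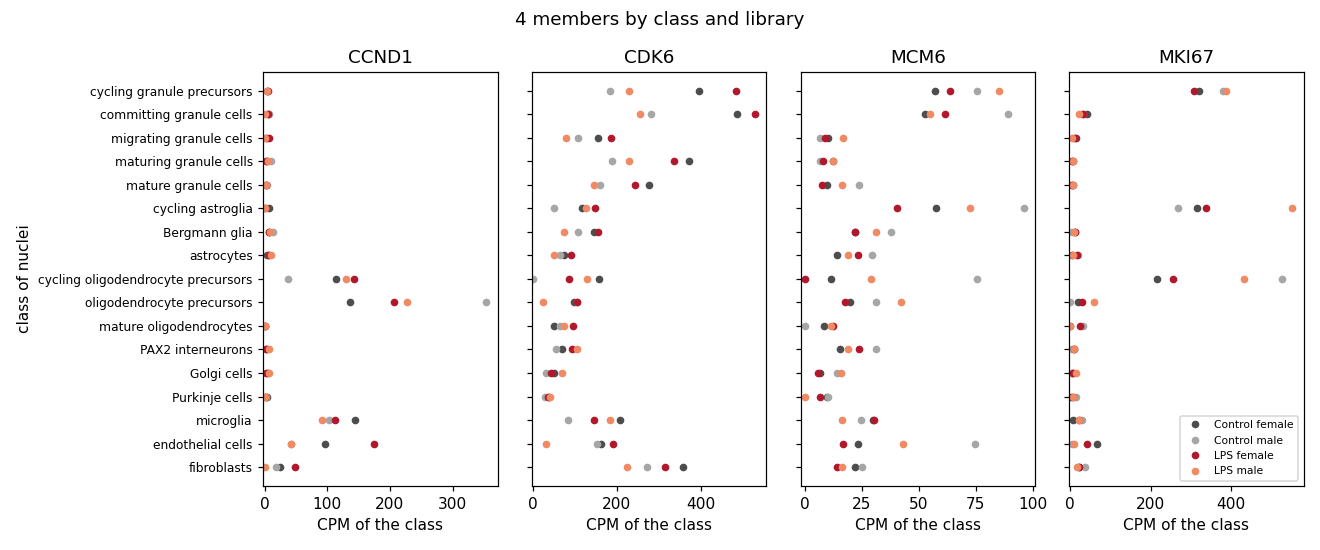
CPM (x axis) of CCND1, CDK6, MCM6 and MKI67 by class of nuclei (y axis), 1 point per library. The granule classes led by TRPC7 and KIAA1217 are among those not drawn. MKI67 is high only in the 3 cycling clusters among the classes drawn. MCM6 is highest in cycling granule precursors, cycling astroglia and committing granule cells. CDK6 is highest in committing and cycling granule classes and lower in migrating ones. CCND1 is high in oligodendrocyte precursors, the class drawn as microglia, in which macrophages were not separated, and endothelial cells.

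Most of the 17 S phase, replication and repair members were high in the cycling clusters and lower, to different degrees, in committing granule cells. Exceptions included PCNA, whose mean in free RNA (33.6 CPM) was above its mean in each cycling cluster, and MCM5, which was as high in committing granule cells. E2F1 had a lower mean in cycling astroglia (15.9 CPM) than in committing granule cells (26.8 CPM). For E2F1, MCM3 and MCM6, cycling oligodendrocyte precursors were not among the 4 highest named classes, while committing granule cells were. BRCA1, a repair factor, measured 434, 579.9, 424 and 499 CPM in cycling granule precursors and 149, 199, 135 and 172 CPM in committing granule cells. BRCA2, also a repair factor, measured 427, 429, 399.7 and 376 CPM in cycling granule precursors against 41.5, 53.3, 26.4 and 32.8 CPM in committing granule cells. Each value of BRCA2 in cycling granule precursors was far above each value in committing granule cells. ATAD2, a chromatin factor of dividing cells, measured 371, 455, 419 and 290.1 CPM in cycling granule precursors and 459, 597, 513 and 525 CPM in cycling astroglia. FANCI, of the crosslink repair pathway, measured 261, 334, 268 and 257 CPM in cycling granule precursors against 207, 349, 221 and 235 CPM in cycling astroglia. ATAD2 was higher in the astroglial cluster in each library, and FANCI in 1 of 4. The other 13 S phase members were also highest in a cycling cluster by mean level among the classes of nuclei.

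MCM6 overlapped between committing granule cells and cycling granule precursors, while PCNA and E2F1 were lower in committing granule cells in each library. MCM6, a helicase subunit, measured 57.04, 75.4, 63.6 and 84.96 CPM in cycling granule precursors and 52.9, 89.3, 61.5 and 55.1 CPM in committing granule cells. The libraries of the 2 classes overlapped. PCNA, the sliding clamp, measured 27.7, 39.1, 41.5 and 21.8 CPM in cycling granule precursors against 18.7, 30.4, 21.02 and 15.2 CPM in committing granule cells. Free RNA held 40.4, 10.8, 73.8 and 9.66 CPM of PCNA. That was more than either class held in both female libraries and less in both male libraries. By mean, committing granule cells held 21.3 CPM of PCNA against 33.6 CPM in free RNA. E2F1, the S phase transcription factor, measured 36.2, 52.7, 30.7 and 43.5 CPM in cycling granule precursors against 25.6, 31.1, 18.7 and 31.6 CPM in committing granule cells. As a share of the level in cycling granule precursors, committing granule cells kept 92.05% (range 64.8 to 118% over the libraries) of MCM6, 65.6% (range 50.6 to 77.9% over the libraries) of PCNA and 65.7% (range 59.1 to 72.7% over the libraries) of E2F1. A pair of further S phase members, named after their values were seen, were MCM5 at 98.7% (range 83.6 to 108% over the libraries) and MCM3 at 74.2% (range 66.9 to 83.7% over the libraries). For BRCA2 the share was 9.43% (range 6.60 to 12.4% over the libraries), for TOP2A 5.49% (range 3.31 to 7.55% over the libraries) and for ASPM 5.30% (range 2.12 to 9.35% over the libraries). The median over the 17 S phase members was 20.8%, and over the 10 members of G2 and mitotic entry 6.49%. Each of those 10 had a lower mean in committing granule cells than in free RNA, for example 37.2 against 67.4 CPM for TOP2A. ASPM was also lower, at 21.7 against 30.9 CPM, while BRCA2 was higher, at 38.5 against 31.7 CPM. The means of TOP2A, ASPM and the G2 group in committing granule cells thus lay below free RNA. Mature granule cells held less still of each, for example 9.32 CPM of TOP2A and 4.96 CPM of ASPM. How much of the level in committing granule cells comes from free RNA was not tested. After thinning each nucleus to 1000 UMIs, 120 of 2714 nuclei (4.42%, 95% interval 3.68 to 5.26) of committing granule cells still held 5 or more different members.

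The 10 members of G2 and mitotic entry were high in the cycling clusters. MKI67 measured 319.5, 381, 309 and 386 CPM in cycling granule precursors, 316, 268, 337 and 552 CPM in cycling astroglia and 215, 527, 256 and 433 CPM in cycling oligodendrocyte precursors, against 6.38, 2.45, 3.43 and 6.86 CPM in mature granule cells. TOP2A, the topoisomerase that untangles chromosomes, measured 568, 899.8, 638 and 605 CPM in cycling granule precursors, 634, 936, 839 and 860.4 CPM in cycling astroglia and 543, 1205, 426 and 563 CPM in cycling oligodendrocyte precursors. MELK, a mitotic kinase, measured 324, 268, 258 and 176 CPM in cycling granule precursors and was lowest in LPS male. Thinned to 1000 UMIs, 27.9% of cycling granule precursors held an MKI67 UMI (unthinned 63.5%, median 4188 UMIs). In mature granule cells, which should lack it, the share was 0.377% (unthinned 1.76%, median 3296.5 UMIs).

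Of the 5 kinetochore and checkpoint members, CENPF, a kinetochore protein of G2, measured 519, 568, 456 and 603 CPM in cycling granule precursors and 159.5, 125, 125 and 130.0 CPM in committing granule cells, a share of 25.1% (range 21.6 to 30.7% over the libraries). CENPE, the kinetochore kinesin, measured 307, 561, 357 and 379 CPM and CENPP, of the inner kinetochore, 496, 294, 441 and 259 CPM in cycling granule precursors. CENPP was higher in both female libraries. Among the 6 spindle members ASPM, which organizes spindle poles, measured 444, 457, 375 and 358 CPM, KIF20B, a kinesin of late mitosis, 217, 315, 204 and 231 CPM, and TACC3, a spindle stabilizer, 289, 454, 227 and 314 CPM. The row for BUB1B, found by ID, measured 277, 245, 271 and 196 CPM and that for KIF23 168, 237, 138 and 174 CPM.

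The 4 members of cytokinesis and actin included 2 genes that were also high outside the cycle. DIAPH3, an actin-nucleating formin, measured 1558, 752, 1504 and 816 CPM in cycling granule precursors and 1939.8, 1224, 1839.8 and 933 CPM in cycling astroglia, with both female libraries above both male libraries. ECT2, which triggers the contractile ring, measured 213, 178, 204 and 141 CPM in cycling granule precursors. GAS2L3, a linker of actin and microtubules, measured 335, 344, 356 and 308 CPM in cycling astroglia and 163, 240.0, 163 and 116 CPM in Bergmann glia, a class outside the cycle, against 39.7, 33.6, 29.7 and 24.5 CPM in free RNA. ANLN, anillin of the contractile ring, was named after its values were seen: it measured 74.4, 193, 157 and 564 CPM in mature oligodendrocytes, which held 13, 5, 9 and 58 nuclei, beside 186, 204, 192 and 174 CPM in cycling granule precursors. The 10 members of G2 and mitotic entry summed to 49.6, 1155, 337 and 26.3 CPM in the same class. In Control male and LPS female, the ANLN of mature oligodendrocytes thus came with other mitotic genes, and in LPS male, its highest library, with few of them.

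Nuclei of cycling granule precursors were then placed by other cell cycle genes, 24 of S phase and 39 of mitosis, none of them a member. The index was the mitosis share of these UMIs, and the lowest-scoring tertile (520 nuclei, index up to 0.556) was set against the highest (502 nuclei, index above 0.769). These are ranges of a score and not cell types, and 429 of 1519 nuclei lay within 0.05 of a bound. Of the 17 S phase members, 16 were higher on the S side in all 4 libraries, the exception being BRCA2. Of the 25 members of the later groups, 23 were higher on the mitosis side in all 4 libraries, the exceptions being MELK and CENPP. The log2 ratio of mitosis side over S side, with 10 CPM added, was 3.82 ± 0.28 (SD, n = 4) for ASPM, 3.82 ± 0.28 (SD, n = 4) for CENPE and 3.71 ± 0.46 (SD, n = 4) for CCNB1, cyclin B1. It was 2.40 ± 0.31 (SD, n = 4) for TOP2A but 1.28 ± 0.29 (SD, n = 4) for MKI67 and 0.88 ± 0.093 (SD, n = 4) for DIAPH3.

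On the S side the ratio was -2.52 ± 0.60 (SD, n = 4) for E2F1, -2.40 ± 0.51 (SD, n = 4) for MCM3 and -2.20 ± 0.32 (SD, n = 4) for MCM6. BRCA2 stood at -0.46 ± 0.39 (SD, n = 4) and POLQ, a repair polymerase, at -0.31 ± 0.27 (SD, n = 4). CENPP, grouped with the kinetochore, was higher on the S side in all 4 libraries, at -1.41 ± 0.58 (SD, n = 4), and in cycling astroglia likewise, at -1.08 ± 0.88 (SD, n = 4). CDK6 stood at -0.28 ± 0.22 (SD, n = 4) and was not on 1 side in all 4 libraries. CCND1, with 3 to 12 UMIs per library and 0 on both sides in LPS male, was too low to place. Median UMIs were higher on the mitosis side in each library, for example 5838 against 4176 in Control female, a difference in depth whose part in these ratios was not tested. The genes and members named here beyond the fixed rule were chosen after their values were seen.

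**Figure D3:**
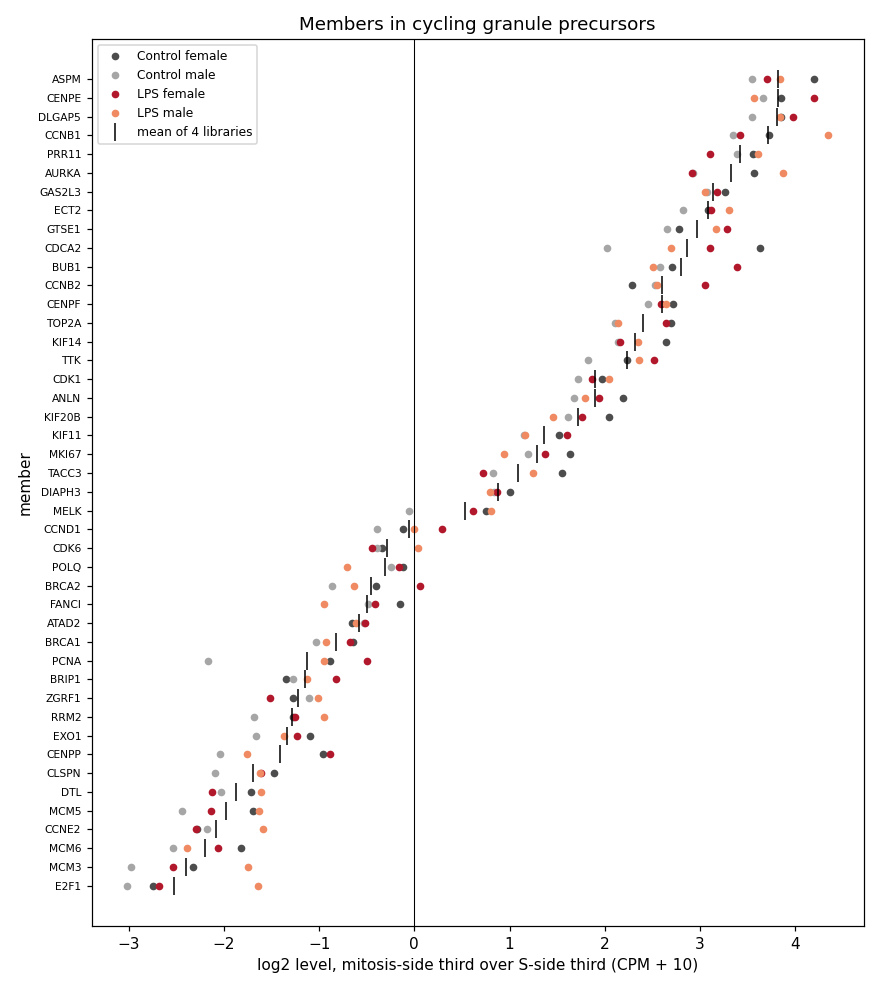
Log2 ratio of the level in the mitosis-side tertile over the S-side tertile of cycling granule precursors (x axis, 10 CPM added) for each member (y axis, ordered by the mean), 1 point per library and a bar for the mean. E2F1 and MCM3 lie at the left end, ASPM and CENPE at the right, CDK6 and POLQ close to 0, as does CCND1, which has too few UMIs to place, and CENPP among the S phase members.

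Over 89 class by library sums of 24 classes, the genes most like MKI67 among 11503 genes were BUB1 (Pearson r = 0.880), DTL (0.857), ESPL1 (0.851), DEPDC1 (0.844) and ASPM (0.832), on log2(CPM + 1). The sums share libraries, depth and the cycling clusters, so these values only describe. Likeness was lowest for the members CCND1 (0.110) and CDK6 (0.312), and next came PCNA (0.519). No such comparison was made for CCND2, which had no row.

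Outside the 3 lineages with a cycling cluster, single nuclei with many members were found in classes of the vessels, meninges and immune system, and rarely in neurons. With every nucleus thinned to 1000 UMIs, 5 or more members were detected in 15 of 251 nuclei (5.98%, 95% interval 3.38 to 9.67) of the microglia-like class, 17 of 494 nuclei (3.44%, 95% interval 2.02 to 5.45) of fibroblasts and 6 of 192 nuclei (3.12%, 95% interval 1.16 to 6.68) of endothelial cells. The microglia-like class had 8 of 8 microglia markers raised, but F13A1, MRC1 and CD36, known from border macrophages, were among its 10 leading genes, and macrophages were not separated from microglia. In mature granule cells the count was 0 of 2917 nuclei, which allows a share of up to 0.103% at 3 counts of the total (exact two-sided 95% upper limit 0.126%). In cycling granule precursors it was 1296 of 1508 nuclei (85.9%, 95% interval 84.1 to 87.7), in cycling astroglia 161 of 188 nuclei (85.6%, 95% interval 79.8 to 90.3), in cycling oligodendrocyte precursors 28 of 34 nuclei (82.4%, 95% interval 65.5 to 93.2), in Bergmann glia 24 of 1636 nuclei (1.47%, 95% interval 0.942 to 2.17) and in astrocytes 12 of 1510 nuclei (0.795%, 95% interval 0.411 to 1.38). Mural cells gave 4 of 30 nuclei (13.3%, 95% interval 3.76 to 30.7), PAX2 interneurons 5 of 1105 nuclei (0.452%, 95% interval 0.147 to 1.05), Golgi cells 2 of 500 nuclei (0.400%, 95% interval 0.0485 to 1.44) and Purkinje cells 1 of 118 nuclei (0.847%, 95% interval 0.0215 to 4.63). Without marked doublets the PAX2 interneurons kept 5 such nuclei, and the Golgi and Purkinje cells 0. Intervals and limits cover counting error only. Without the nuclei marked as doublets the microglia count was 12 of 224 nuclei. By library, the microglia with 5 or more members numbered 7 of 82, 3 of 66, 4 of 61 and 1 of 42. Unthinned, 14.1% of microglia and 1.99% of mature granule cells reached 5 members.

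Whether exposure changed how many nuclei were cycling was asked within each lineage. In the granule lineage, the part of nuclei in the cycling cluster was high in LPS female and low in LPS male, a library in which mature granule cells made up 34.5% of the lineage. The share was 7.10% in Control female (480 of 6760 nuclei, 95% interval 6.50 to 7.74). It was 6.41% in Control male (386 of 6020 nuclei, 95% interval 5.81 to 7.06). It was 8.83% in LPS female (449 of 5087 nuclei, 95% interval 8.06 to 9.64). It was 4.74% in LPS male (204 of 4302 nuclei, 95% interval 4.13 to 5.42). The group means were 6.76% ± 0.487 (SD, n = 2) and 6.78% ± 2.89 (SD, n = 2), with an exact permutation p of 1.00, two-sided. With 2 fetuses against 2 the smallest p is 0.33. The 2 LPS values enclosed both Control values, and LPS minus Control was 2.07 percentage points without LPS male and -2.01 without LPS female. By 5 or more members detected after thinning, the shares were 6.88, 6.67, 8.23 and 4.35%, the same order of libraries at the extremes. Mature granule cells numbered 570, 546, 357 and 1485 nuclei, or 8.43, 9.07, 7.02 and 34.5% of the lineage. With that class left out, a choice made after seeing the data, the cycling shares were 7.75, 7.05, 9.49 and 7.24%. LPS female then stayed highest, while LPS male lay between the Control libraries. Leaving out a class without cycling nuclei can only raise a share, most where that class is largest.

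Among astroglia the order was alike. The share was 6.45% in Control female (60 of 930 nuclei, 95% interval 4.96 to 8.23). It was 4.74% in Control male (53 of 1117 nuclei, 95% interval 3.57 to 6.16). It was 7.25% in LPS female (51 of 703 nuclei, 95% interval 5.45 to 9.43). It was 3.77% in LPS male (25 of 664 nuclei, 95% interval 2.45 to 5.51). The exact permutation p was 1.00, two-sided, and LPS minus Control was 1.66 percentage points without LPS male and -1.83 without LPS female. In the oligodendrocyte lineage both LPS shares were below both Control shares by cluster, which did not hold by 2 other measures. The share was 9.24% in Control female (11 of 119 nuclei, 95% interval 4.71 to 15.9). It was 9.09% in Control male (8 of 88 nuclei, 95% interval 4.01 to 17.1). It was 7.41% in LPS female (6 of 81 nuclei, 95% interval 2.77 to 15.4). It was 6.52% in LPS male (9 of 138 nuclei, 95% interval 3.03 to 12.02). The difference of -2.20 percentage points had an exact permutation p of 0.33, two-sided, the smallest that 2 against 2 allows. The intervals of all 4 libraries overlapped. Mature oligodendrocytes, a class outside the cycling cluster, made up 13, 5, 9 and 58 of these nuclei. Counting that class lowers a share, most in LPS male, and the shares without it were not computed. With doublets removed the shares were 6.31, 9.30, 5.06 and 6.77%, and by 5 or more members detected after thinning 7.63, 10.7, 10.00 and 5.80%. The groups overlapped by both, with an exact permutation p of 0.667, two-sided, for each.

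**Figure D4:**
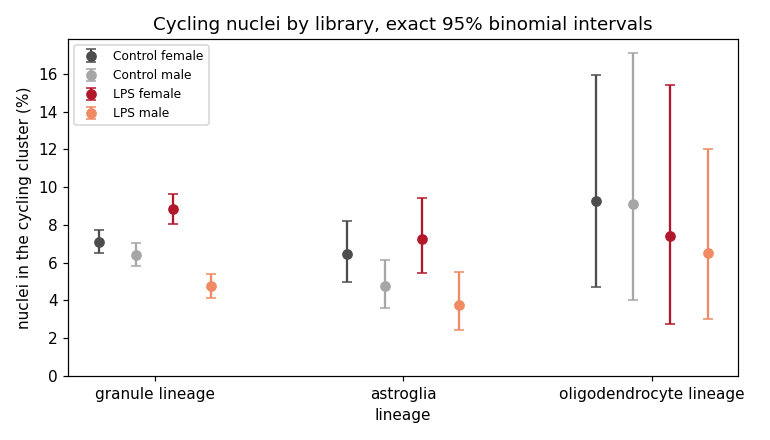
Share of nuclei in the cycling cluster (y axis, percent) by lineage (x axis), 1 point per library with the exact 95% binomial interval. LPS female is highest and LPS male lowest among the granule lineage and astroglia, and all intervals overlap in the oligodendrocyte lineage.

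In the granule lineage the members summed to 1612, 1745, 1829 and 1236 CPM, a log2 ratio of LPS over Control of -0.16 with a pooled SD of 0.29, and the pairs of the same sex went opposite ways (0.18 in females, -0.50 in males). Without the mature granule cells the sums were 1724, 1886, 1950.3 and 1647 CPM and the log2 ratios 0.18 in females and -0.19 in males. In astroglia the sum was 1741, 1675, 1994 and 1283 CPM (-0.095, pooled SD 0.32). The cycling cluster held 58.2, 62.8, 64.2 and 54.7% of the member UMIs of the granule lineage and 57.6, 43.7, 56.9 and 48.9% of those of astroglia. In the oligodendrocyte lineage the sum was 1721, 2574, 1554 and 1443 CPM, a log2 ratio of -0.49 with a pooled SD of 0.30. Both LPS values were below both Control values, but the log2 ratio was -0.20 without Control male and -0.78 without Control female. Its cycling cluster held 69.7, 59.9, 34.9 and 54.3% of the member UMIs. Within cycling granule precursors the ratio of S phase to mitosis UMIs was 0.394, 0.450, 0.426 and 0.441. Its log2 ratio of LPS over Control was 0.041, less than its pooled SD of 0.10. The mitosis UMIs were those of all 25 members of the later groups, among them CENPP, which was higher on the S side. The 4 cytokinesis members held 5742, 1451, 4781 and 1254 of these 19901, 8749, 16299 and 6180 UMIs.

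Each gene was then tested for Control against LPS on UMIs summed per fetus, by edgeR's quasi-likelihood test, and called at an adjusted p under 0.1 and a log2 fold change beyond 0.25. In the granule lineage the test called 0 of 44 members tested, beside 0% of all 14882 genes. At an unadjusted p under 0.05 stood 0 of the members and 0.175% of all genes (26), and DESeq2 also called 0 genes. If no gene had changed, a share near 0.05 of them would stand there, so the test was conservative. Its model had no term for sex, with which depth moves. With sex as a block, 283 of 14882 genes stood under 0.05 here and 410 of 10649 in cycling granule precursors. Astroglia gave 374 of 12217 and the oligodendrocyte lineage 345 of 7469, so each share was still under 0.05. Why the counts were low was not tested. In this class and those below, 0 calls are therefore not read as no change. The median log2 fold change of the members was -0.17, against 0.0095 over all genes. By CPM without a filter, both LPS fetuses lay above both Control fetuses for 0 of 44 members (7.58% of all genes) and below for 2 of 44 (5.84% of all genes). In the female pair 33 of 44 members were higher in LPS than in Control, and in the male pair 1 of 44, against 7210 and 7455 of all genes, on the TMM scale. By plain CPM these counts were 41 and 0 of 44, and with mature granule cells left out 39 and 6. No such count over all genes was made on plain CPM, so these have no background to be read against. Within cycling granule precursors, on the TMM scale, 21 and 7 of 43 tested were higher, against 5344 and 5318 of all 10649 genes. The part that the larger share of mature granule cells in LPS male has in the fold changes of the lineage below was not tested gene by gene. The 5 members with the largest changes follow, as CPM scaled by TMM factors. On that scale 5 of 44 members lay below in both LPS fetuses (6.52% of all genes tested) and 0 above (6.28%). TACC3, MCM3 and E2F1 did not overlap between groups on it, whereas on plain CPM they did.

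TACC3, the spindle stabilizer, measured 29.5, 46.1, 28.5 and 25.6 CPM, a log2 fold change of -0.48 ± 0.35 (SE). In LPS both values lay below those of Control. MCM3, a helicase subunit, measured 8.75, 15.1, 8.51 and 8.70 CPM, a log2 fold change of -0.47 ± 0.43 (SE). Neither LPS value reached a Control value. CCND1, cyclin D1, measured 3.996, 6.44, 4.78 and 2.68 CPM, a log2 fold change of -0.48 ± 0.57 (SE). The groups overlapped. MELK, the mitotic kinase, measured 33.7, 28.5, 31.5 and 17.2 CPM, a log2 fold change of -0.35 ± 0.41 (SE). The groups overlapped. E2F1, the S phase factor, measured 7.27, 9.98, 7.25 and 6.32 CPM, a log2 fold change of -0.34 ± 0.41 (SE). In LPS both values lay below those of Control. None passed the test, with edgeR adjusted p of 1.00 for each. Without Control male the log2 fold change was -0.0043 for MCM3, -0.10 for TACC3, -0.079 for E2F1 and -0.077 for CCND1. Without LPS male it was 0.017 for MELK and -0.12 for CCND1.

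Within cycling granule precursors the test called 0 of 43 members tested, beside 0% of all 10649 genes, and 1 member, CCND1, was too low to test. At an unadjusted p under 0.05 stood 0 of the members and 0.282% of all genes (30), and DESeq2 called 0 genes. The median log2 fold change was -0.16 over members and 0.0082 over all genes. Without a filter, both LPS fetuses lay below both Control fetuses for 8 of 44 members (18.2% against 8.82% of all genes) and above for 0 (8.29% of all genes). The 8 were KIF14, ASPM, EXO1, POLQ, TTK, MELK, BRCA2 and AURKA. Members share nuclei and are not independent of one another. On the TMM scale used next, MELK overlaps.

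TACC3, the spindle stabilizer, measured 299, 442, 236 and 312 CPM, a log2 fold change of -0.43 ± 0.33 (SE). The groups overlapped. MELK, the mitotic kinase, measured 335, 261, 268 and 175 CPM, a log2 fold change of -0.43 ± 0.33 (SE). The groups overlapped. MCM3, the helicase subunit, measured 41.9, 77.8, 37.97 and 55.6 CPM, a log2 fold change of -0.35 ± 0.45 (SE). The groups overlapped. CCNE2, cyclin E2 of S phase entry, measured 60.2, 84.9, 66.6 and 46.3 CPM, a log2 fold change of -0.35 ± 0.38 (SE). The groups overlapped. KIF14, a kinesin of cytokinesis, measured 325, 365, 293 and 251 CPM, a log2 fold change of -0.34 ± 0.28 (SE). Both LPS values lay below both Control values. None passed the test, with edgeR adjusted p of 1.00 for each. Leaving out Control male gave -0.12 for TACC3, 0.15 for MCM3 and -0.082 for CCNE2, and leaving out LPS male -0.17 for MELK and -0.13 for CCNE2, as log2 fold changes. For KIF14 it ran from -0.46 to -0.24 with each library left out in turn.

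In astroglia the test called 0 of 44 members tested, beside 0% of all 12217 genes. At an unadjusted p under 0.05 stood 0 of the members and 0.336% of all genes (41), and DESeq2 called 0 genes. The median log2 fold change was -0.045 over members and 0.0093 over all genes. It was -0.13 over the 17 S phase members and 0.23 over the 10 of G2 and mitotic entry. In the female pair these medians were 0.15 and 0.40, and in the male pair -0.51 and -0.084. Of the 44 members, 36 were higher in LPS in the female pair and 8 in the male pair, against 6022 and 6124 of all 12217 genes. Without a filter, both LPS fetuses lay above both Control fetuses for 4 of 44 members (CENPF, CENPE, CCNB1 and MKI67, against 8.33% of all genes) and below for 2 (CLSPN and E2F1, against 8.23%). Scaled by TMM factors, the counts turned to 2 above and 4 below, against 8.01% and 8.2% of all genes tested, and no direction is read from them. E2F1, the S phase factor, measured 4.26, 6.80, 2.75 and 3.70 CPM, a log2 fold change of -0.78 ± 0.66 (SE). Both LPS values lay below both Control values, and with doublets removed the log2 fold change was -0.31. CCNB1, cyclin B1, measured 11.9, 8.57, 18.7 and 12.02 CPM, a log2 fold change of 0.59 ± 0.46 (SE). In LPS both values lay above those of Control. CCNE2, cyclin E2, measured 9.23, 14.2, 11.01 and 6.01 CPM, a log2 fold change of -0.44 ± 0.53 (SE). The groups overlapped. MELK, the mitotic kinase, measured 47.1, 31.6, 43.2 and 14.8 CPM, a log2 fold change of -0.43 ± 0.57 (SE). The groups overlapped. RRM2, which makes nucleotides for replication, measured 6.04, 6.20, 11.01 and 5.09 CPM, a log2 fold change of 0.41 ± 0.59 (SE). The groups overlapped. None passed the test, with edgeR adjusted p of 1.00 for each. With 1 library left out the log2 fold change ran from -1.08 to -0.41 for E2F1, from 0.22 to 0.86 for CCNB1, from -0.96 to -0.089 for CCNE2, from -1.42 to 0.13 for MELK and from -0.27 to 0.84 for RRM2. MELK was above 0 without LPS male, RRM2 below 0 without LPS female, and CCNB1 lowest without LPS female.

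The oligodendrocyte lineage gave the largest differences and the fewest molecules. The test called 0 of 33 members tested, beside 0% of all 7469 genes, and 11 members were too low to test. At an unadjusted p under 0.05 stood 3 of the members and 1.04% of all genes (78). The 3 members were PRR11, CENPE and KIF14. DESeq2 called 1 gene, which was not a member. Over all 44 members without a filter, both LPS fetuses lay below both Control fetuses for 18 (40.9%, against 9.74% of all genes) and above for 2 (11.8% of all genes). The 18 included ASPM, KIF11, KIF14, CENPE, CCNB1 and DLGAP5. In Control male, 121 of the 699 member UMIs of the lineage came from its 5 mature oligodendrocytes. The counts also rest on the 11, 8, 6 and 9 nuclei of the cycling cluster and on a lineage in which LPS male held 58 mature oligodendrocytes of 138 nuclei, against 13 of 119, 5 of 88 and 9 of 81. The part of this make-up in the member levels was not tested.

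PRR11, a gene of G2 and chromosome condensation, measured 35.5, 98.2, 14.98 and 11.3 CPM, a log2 fold change of -2.27 ± 0.66 (SE). Both LPS values lay below both Control values and rested on 26, 27, 7 and 7 UMIs. CENPE, the kinetochore kinesin, measured 58.6, 127, 10.7 and 38.8 CPM, a log2 fold change of -1.82 ± 0.65 (SE). Neither LPS value reached a Control value, on 43, 35, 5 and 24 UMIs. DLGAP5, a spindle assembly factor, measured 36.8, 25.4, 6.42 and 14.6 CPM, a log2 fold change of -1.55 ± 0.70 (SE). In LPS both values lay below those of Control, on 27, 7, 3 and 9 UMIs. KIF14, the kinesin of cytokinesis, measured 39.5, 87.3, 19.3 and 25.9 CPM, a log2 fold change of -1.42 ± 0.58 (SE). Neither LPS value reached a Control value. ANLN, anillin, measured 49.1, 50.9, 38.5 and 259 CPM, a log2 fold change of 1.59 ± 0.74 (SE). The groups overlapped and LPS male alone stood high, the library with the most mature oligodendrocytes. None passed the test, with edgeR adjusted p of 1.00 for each. With 1 library left out, edgeR called PRR11 without Control female (adjusted p = 0.0703), CENPE without LPS male (adjusted p = 0.0793) and ANLN without LPS female (adjusted p = 0.00764), while without LPS male the log2 fold change of ANLN was -0.37. With each library left out in turn, the log2 fold change ran from -2.88 to -1.44 for PRR11, from -3.03 to -1.21 for CENPE, from -2.27 to -1.14 for DLGAP5 and from -1.92 to -0.81 for KIF14. Without Control male it was -1.44 for PRR11, -1.22 for CENPE and -0.81 for KIF14, and without LPS female -1.21 for CENPE and -1.14 for DLGAP5.

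**Figure D5:**
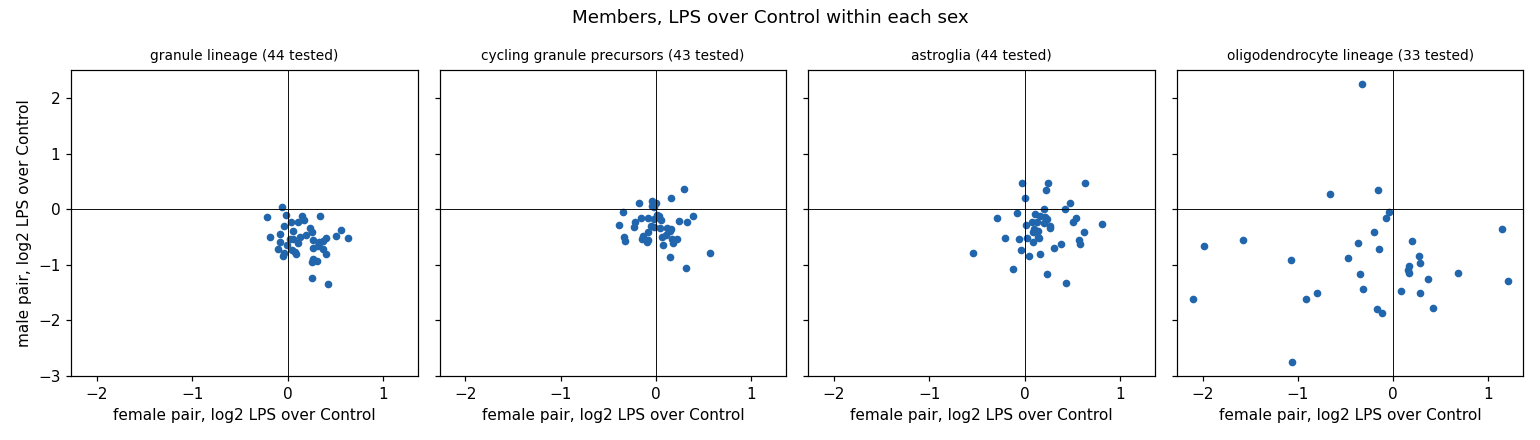
Log2 ratio of LPS over Control for the tested members in the female pair (x axis) and the male pair (y axis), 1 point per member, in 4 classes. In the granule lineage most points lie right of 0 and below 0, that is higher in LPS female and lower in LPS male than in the Control of the same sex.

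Fetal sex, with which depth moves, separated many genes. In cycling granule precursors, both female fetuses lay above both male fetuses for 7 of 44 members (15.9%, against 25.3% of all genes) and below for 12 (27.3%, against 27.8%). Those shares are near or under the background. In astroglia the female libraries lay above for 18 of 44 (40.9%, against 22.4%) and below for 7 (15.9%, against 31.6%).

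The other cell cycle genes gave no call either: 0 of 24 S phase genes, 0 of 38 mitosis genes and 0 of 9 exit genes and inhibitors tested in cycling granule precursors passed, with median log2 fold changes of -0.14, -0.11 and 0.067. In the granule lineage, astroglia and the oligodendrocyte lineage the calls were also 0. Since no gene of these lists was called, none is named by its change.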

How the data were processed

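Nuclei of the left hemisphere and left side of the vermis, frozen and lysed with a detergent, were sequenced on a droplet platform, 1 library per fetus. The authors deposited raw UMI counts per gene and barcode, aligned to Mmul_8.0.1 with introns included; the submitters' processing notes name Cell Ranger 4. Library totals were 34282015 to 61665690 UMIs. Barcodes with 500 or more genes and at most 5% mitochondrial UMIs were kept. Seurat 5.3.0 (R 4.3.3) integrated the libraries (2000 variable features, 30 dimensions, resolution 0.5) with the members taken out, and clusters were named from marker lists. Scrublet (scanpy 1.11.5, Python 3.11.15) marked 410 to 553 doublets per library, which were kept; its automatic thresholds marked 0% in both male libraries, so 0.192, the median of the others, was used there.

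UMIs were summed per fetus and class and tested with edgeR 4.0.16 (filterByExpr, TMM, quasi-likelihood, Benjamini-Hochberg adjusted over all genes tested), checked on simulated data. DESeq2 1.42.0, no filter, 1000 or more genes, doublets removed, sex as a block and leaving out each library were alternatives. Shares used exact Clopper-Pearson 95% intervals and exact permutation tests. MKI67 likeness used sums of 50000 or more UMIs and genes with a mean of 5 or more CPM. Nuclei with 5 or more UMIs of the other cell cycle genes were placed by phase. Members named by library were 12 genes fixed by name, 10 of them with rows, and the 3 with the most UMIs per role, and between groups the 5 largest changes per class. The members and lists were chosen with earlier results of these data known. The split by phase and the counts of members whose groups or sexes did not overlap were chosen after seeing the data. The labels call each fetus a separate sample.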

Additional observations from a re-analysis of the deposited data

Results flagged for a closer look

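Each result here moved one way from Control to LPS in the female pair and the opposite way in the male pair. The differences between the pairs were not tested, since each pair holds 1 fetus per group. The female libraries are also the deeper ones, so sex and depth cannot be told apart. The share of granule lineage nuclei in the cycling cluster differed between the pairs by 3.40 (1.73 in females, -1.67 in males) percentage points, and that of astroglia by 1.78 (0.803 in females, -0.980 in males). Mature granule cells made up 34.5% of the lineage in LPS male against 7.02 to 9.07% in the other libraries. With that class left out, a choice made after seeing the data, the differences in the share were 1.74 percentage points in females and 0.190 in males, no longer opposite. The class holds no nuclei of the cycling cluster, so leaving it out can only raise a share, and it raised LPS male most. The loss of opposite signs is therefore no separate result. The summed member level differed by 0.68 (0.18 in females, -0.50 in males) on the log2 scale in the granule lineage (0.18 and -0.19 without mature granule cells) and by 0.58 (0.20 in females, -0.39 in males) in astroglia, and the S phase to mitosis ratio of cycling granule precursors by 0.14 (0.11 in females, -0.030 in males). Among the members with the largest changes, the log2 fold changes differed by 1.49 (0.25 in females, -1.23 in males) for CCND1, cyclin D1, in the granule lineage. For CCNE2, cyclin E2, they differed by 1.00 (0.14 in females, -0.86 in males) in cycling granule precursors and by 1.41 (0.24 in females, -1.17 in males) in astroglia. RRM2, the nucleotide-making enzyme, differed by 1.07 (0.81 in females, -0.26 in males) in astroglia, and ANLN, anillin, by -2.58 (-0.32 in females, 2.26 in males) in the oligodendrocyte lineage.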

How the results depend on the processing

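Without the filter on low counts edgeR called 5 genes in cycling granule precursors, 12 in astroglia and 12 in the oligodendrocyte lineage, in place of 0. Leaving out each library in turn gave 0 calls each time in the granule lineage, 0 to 2 in cycling granule precursors, 0 to 3 in astroglia and 12 to 61 in the oligodendrocyte lineage, where the lone fetus of a group was assumed to vary like the others. DESeq2 called 1 gene in the oligodendrocyte lineage, which was no member. With the sex of the fetus as a replicate block, 4 genes were called in cycling granule precursors and 7 in the oligodendrocyte lineage, none of them a member, and 0 in the granule lineage and in astroglia. The fetuses of 1 sex are not the same animal and there are only 2 such pairs, so this is no paired design, although their deviations from the group means correlated across genes at 0.571 to 0.725. The difference in the share of cycling nuclei in the granule lineage, LPS minus Control, turned negative with 1000 or more genes per nucleus (-1.18 percentage points) and by members detected after thinning (-0.488), and ran from -2.01 to 2.07 with 1 library left out, and it was 0.964 with mature granule cells left out. That in astroglia turned positive with doublets removed (0.180) and after thinning (0.0365), and ran from -1.83 to 1.66. The oligodendrocyte lineage share ran from -2.65 to -1.76 with 1 library left out. It was -1.89 with doublets removed and -1.27 after thinning, and the groups overlapped in both. The thinned difference turned to 0.271 without Control male and 0.829 without LPS male. The share with mature oligodendrocytes left out, a class most numerous in LPS male, was not computed. The summed level in the granule lineage ran from -0.44 without LPS female to 0.13 without LPS male, that in astroglia from -0.41 to 0.22 for the same libraries, and that in the oligodendrocyte lineage from -0.78 without Control female to -0.20 without Control male. With 1 library left out, log2 fold changes spanned -0.86 to 0.017 for MELK in the granule lineage, -0.74 to 0.15 for MCM3 in cycling granule precursors, -1.42 to 0.13 for MELK and -0.27 to 0.84 for RRM2 in astroglia, and -0.37 to 2.36 for ANLN in the oligodendrocyte lineage, each reversing in 1 of 4. In the oligodendrocyte lineage, PRR11 was called without Control female, CENPE without LPS male and ANLN without LPS female. The causes were not tested. All other values, 232 of 263 recomputed, kept direction and side of the threshold, or moved by less than the spread. For the summed levels and the S phase to mitosis ratio, leaving out 1 of 2 fetuses cannot move the value beyond that spread. Their place among the 232 is therefore no sign of stability, and some changed sign. The granule sum went from -0.16 to 0.13 and the astroglial sum from -0.095 to 0.22, both without LPS male. The ratio went from 0.041 to -0.056 without Control female. The 2 fetuses per group and the 34 cycling nuclei of the oligodendrocyte lineage limit what could be detected.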

Other observations

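BUB1, the checkpoint kinase whose pattern was closest to MKI67, measured 158, 176, 170.1 and 136 CPM in cycling granule precursors and 179, 192, 278 and 145 CPM in cycling astroglia. In mature granule cells BUB1 measured 2.02, 4.90, 2.28 and 2.62 CPM. Tertiles of the phase index were also taken in cycling astroglia, where 189 nuclei gave 63 on the S side and 63 on the mitosis side. There ASPM had a log2 ratio of 3.97 ± 0.51 (SD, n = 4). By the bounds set over all libraries, 29.6, 40.9, 31.4 and 38.7% of cycling granule precursors lay on the S side and 34.6, 30.8, 34.3 and 30.9% on the mitosis side. The S side was larger in both male libraries, which are shallower, than in both female libraries, and the part of depth in this was not tested.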
